A study of Mus musculus with 8 samples.

Results

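The mitochondrial ribosomal protein genes are the nuclear genes for the proteins of the mitochondrial ribosome, named Mrpl for the large subunit and Mrps for the small subunit. They were taken as every gene whose platform symbol starts with Mrpl or Mrps followed by a digit and that has a probe set annotated to it alone, which gave 76 of the 18193 genes on the array. Of these, 47 carry an Mrpl symbol and 29 an Mrps symbol. Where a gene had several probe sets, the one brightest on average (mean log2 signal, 8 arrays) stood for it. A filter that keeps the upper 50% of probe sets by that mean left 74 of the members among 11746 genes tested, and Mrps11 and Mrps27 did not pass it. The arrays measured polyadenylated RNA from mouse material of connexin 43 knockout (KO) and wild type (WT) origin. The groups were KO and WT MII oocytes (mature eggs arrested at metaphase II, 1 array each), KO and WT blastocysts (2 arrays each), and KO and WT implantation sites (1 array each). The series title calls the depletion oocyte-directed, so a KO embryo or implantation site is one derived from such oocytes. The strain, the ages, the allele, the promoter that drives the deletion and the number of animals or embryos behind each array are not given in the sources used here. Nothing in the labels says that blastocyst replicates came from separate collections, so the p-values measure the spread between these arrays, which may be technical.

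Mitochondrial ribosomes make the few proteins encoded by mitochondrial DNA, all of them membrane subunits of the oxidative phosphorylation complexes. Their RNAs come from mitochondrial DNA, but every protein of the particle is encoded in the nucleus, made on cytosolic ribosomes and imported. Part of the set descends from the bacterial ribosome, and the rest was added in the mitochondrial lineage. The egg supplies the mitochondria of the early embryo, which replicate little of their DNA before the blastocyst stage. Promoters of genes for mitochondrial proteins are known for binding sites of the factor NRF1 and of ETS factors such as GABP, whose subunits are encoded by Gabpa and Gabpb1.

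Promoter sequence from RefSeq (GRCm38.p6) was at hand for 67 of the 76 members, and the 250 bases before each start were searched on both strands for the NRF1 motif GCGCANGCG and the ETS motif CCGGAAG. The stretches shown here are those of the member with the largest rise between oocyte and blastocyst, of the member that fell there, and of the 3 related genes Mrps18a, Mrps18b and Mrps18c, whose courses over the stages differed. Capitals mark the motif letters, and positions count back from the start, with -1 the base before it. For Mrpl22 and Mrpl9 the window lies within the annotated span of the gene, and only the bases around the motifs are shown.
Mrpl22, chr11:58171611-58171639, plus strand: CCGGAAGccggcctcggactGCGCATGCG
Mrpl9, chr3:94443298-94443327, plus strand: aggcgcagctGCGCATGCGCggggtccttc
Mrps18a, chr17:46110754-46111003, plus strand: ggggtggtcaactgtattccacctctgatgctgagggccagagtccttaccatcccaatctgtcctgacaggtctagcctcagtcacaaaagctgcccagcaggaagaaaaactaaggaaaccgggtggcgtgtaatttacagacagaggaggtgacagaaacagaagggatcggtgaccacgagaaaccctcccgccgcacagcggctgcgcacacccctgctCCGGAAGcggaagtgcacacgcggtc
Mrps18b, chr17:35916441-35916690, minus strand: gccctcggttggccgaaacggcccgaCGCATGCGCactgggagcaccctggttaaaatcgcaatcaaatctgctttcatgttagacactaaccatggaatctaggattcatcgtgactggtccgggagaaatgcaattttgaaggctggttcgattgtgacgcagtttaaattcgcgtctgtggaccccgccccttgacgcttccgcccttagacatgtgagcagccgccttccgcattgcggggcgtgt
Mrps18c, chr5:100798509-100798758, plus strand: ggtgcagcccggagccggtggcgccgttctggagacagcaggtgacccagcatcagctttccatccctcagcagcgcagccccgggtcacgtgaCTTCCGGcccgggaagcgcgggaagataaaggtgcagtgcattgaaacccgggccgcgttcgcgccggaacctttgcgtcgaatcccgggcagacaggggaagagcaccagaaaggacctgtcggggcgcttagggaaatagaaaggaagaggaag

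Mrpl22 held both motifs, the ETS letters from -53 and the NRF1 letters from -33. In Mrpl9, the NRF1 letters began at -28 and read the same way again on the other strand from -27. The ETS letters began at -26 in Mrps18a and, on the other strand, at -156 in Mrps18c, and Mrps18b held NRF1 letters at -224. Over all members with a promoter, 12 of 67 (17.9%) held the NRF1 motif and 17 of 67 (25.4%) the ETS motif, against 5.86% and 7.83% of the promoters of 27025 genes. Either motif was found in 27 members (40.3%), against 12.7% of these 27025 genes, which were not limited to genes on the array or genes tested. Among the members higher in blastocysts than in oocytes, 8 of 40 held the NRF1 motif (20%), and 4 of the other 27 did (14.8%). The ETS motif was in 10 of these 40 (25%) and in 7 of the other 27 (25.9%). No test was made of these shares. Mrpl9, which fell, held the same NRF1 letters as Mrpl22. These are matches of letters, with no binding measured.

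Signal is the authors' MAS5 intensity, on a linear scale with a 2% trimmed mean of 500 on every array. The median signal over all probe sets ranged from 134 to 220. For arrays, precision is limited by their number. The brightest of the 15 Bacillus control probe sets, used as the level below which a signal was not told from background, read from 100.2 to 560 over the arrays. Gja1, the gene of connexin 43, read 375 and 553 in KO blastocysts, against 574 on the array labelled WT replicate 2 and 9835 on the other WT array. Both KO values were below the brightest control of their arrays (395 and 560), while 574 was above that of its array (219.5). The array labelled WT replicate 2 was thus near the KO arrays in signal, but above background like the other WT array. Blastocyst genotype counts and the members with the largest genotype differences are given with and without WT replicate 2. Leaving it out sets 2 KO arrays against 1 WT array, which has no spread of its own and is assumed to vary like the KO arrays. In oocytes Gja1 was at background in both genotypes (150 in KO, 126 in WT), and it was bright in both implantation sites (28105 in KO, 44493 in WT). Of 8 oocyte markers, 7 were above background on each oocyte array, all 6 trophectoderm and all 5 inner cell mass markers were above it on each blastocyst array, and all 10 markers of uterine stroma and decidua were above it on each implantation site array. Such counts alone separate the stages poorly: 8 uterine markers exceeded background on the WT oocyte array, and 4 trophectoderm markers on each oocyte array. Summed trophectoderm signals were further apart, at 50330 to 63600 on blastocyst arrays against 7761 and 11370 on the KO and WT oocyte arrays.

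The members as a group were low in oocytes, high in blastocysts and intermediate in implantation sites. Their median signal was 471 in KO and 423 in WT oocytes, 1287 and 1501 in KO blastocysts, 1407 and 1602 in WT blastocysts, and 697 in KO and 639 in WT implantation sites. The medians of the 4 blastocyst arrays all lay above those of the other 4 arrays. Over the same arrays, the median of all genes tested moved less, between 379 and 617. On the log2 scale the member median lay 0.11 below that of all genes in the KO oocyte and 0.16 above it in the WT oocyte. It lay 1.06 to 1.42 above it in blastocysts, and 0.71 above in the KO and 0.35 above in the WT implantation site. Above-background counts took another order and were highest in implantation sites, whose arrays had the 2 lowest control levels: 47 of the 76 members exceeded the brightest control on both oocyte arrays, 61 on all blastocyst arrays and 71 on both implantation site arrays. In oocytes 11 members were above it on neither array.

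**Figure D1:**
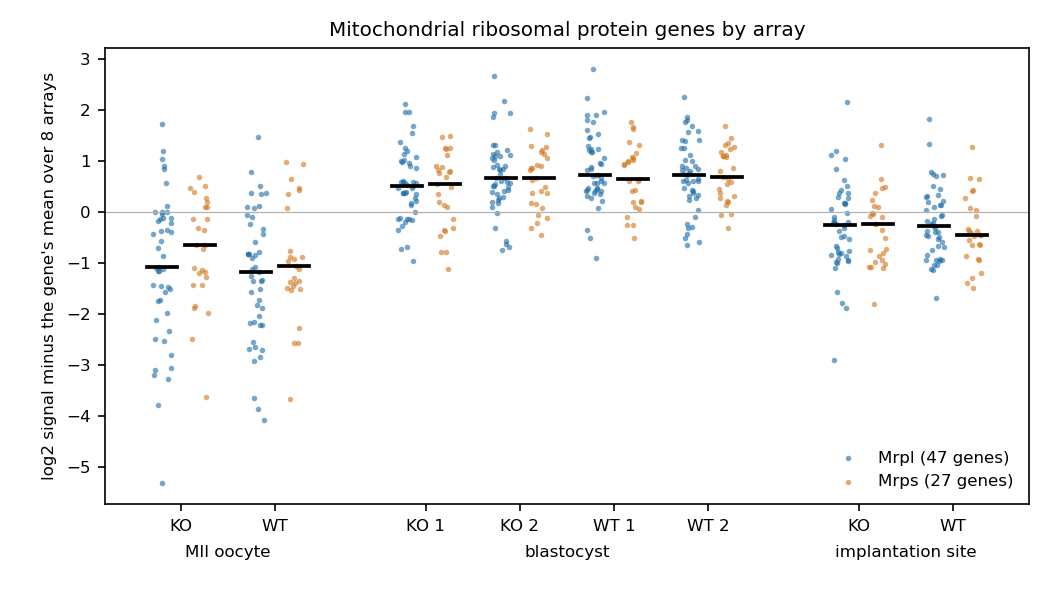
Each point is a member gene (47 Mrpl, 27 Mrps), plotted for each array as its log2 signal minus its own mean over the 8 arrays, with bars at the medians. Both subunits sit below 0 in oocytes, above 0 on all 4 blastocyst arrays and a little below 0 in implantation sites, and the oocyte points are the most spread.

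The large and the small subunit followed the same order of stages. The Mrpl median signal was 412 in KO and 425 in WT oocytes, 1475 to 1478 in KO blastocysts, 1444 to 1603 in WT blastocysts, and 760 in KO and 692 in WT implantation sites. The Mrps medians were 510 and 390 in KO and WT oocytes, 1284 to 1657 in KO blastocysts, 1298 to 1602 in WT blastocysts, and 616 and 535 in KO and WT implantation sites. Levels of different probe sets cannot be compared, so only the course of each median over the arrays is read here. The difference between the Mrpl and Mrps medians stayed between -0.31 and 0.37 on the log2 scale on all 8 arrays. Moving Mrps18a and Mrps30 to the large subunit, where structures place both proteins, and leaving out Mrps36, now known as a subunit of the 2-oxoglutarate dehydrogenase complex, put that difference between -0.59 and 0.28.

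Between oocyte and blastocyst, the signal of most members rose. Every array was scaled to the same trimmed mean and read polyadenylated RNA, so the amount of RNA per oocyte or embryo was not measured. In a limma fit of the 8 arrays with terms for stage and genotype, 45 of 74 members were higher in blastocysts at an adjusted p under 0.05, where 26.9% of all genes tested were higher, and 1 was lower, where 18.6% of all genes were lower. The median log2 difference over the members was 1.77, against 0.43 over all genes, and 1.68 with the 10 members tested that were dim in both oocytes set at their bounds. Of the Mrpl genes 31 of 47 rose (median difference 1.83) and of the Mrps genes 14 of 27 (median 1.54). Split by class, 19 of 28 large subunit proteins classed as having a bacterial homologue rose and 13 of 21 classed as specific to mitochondria. In the small subunit 8 of 14 and 4 of 10 did. The classes specific to mitochondria include Mrps18a (large subunit) and Mrps18b (small subunit), although both genes descend from a bacterial one. The split is therefore not strictly one by descent. The blastocyst and oocyte arrays did not overlap in 50 members with the blastocysts above and in 6 with them below, where 32.7% and 24% of all genes did so.

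The Mrpl22 signal, whose protein lines the exit tunnel of the large subunit, was 8696 and 10087 in KO blastocysts and 15561 and 10604 in WT blastocysts, against 162 in the KO and 178 in the WT oocyte. All blastocyst arrays were far above both oocyte arrays, of which the WT array alone exceeded its brightest control. The log2 difference was 6.01 (SE 0.31, limma adjusted p = 3.83e-07), a 64.7-fold rise. The next largest rises were those of Mrpl41, a protein with no bacterial homologue, and Mrpl15, which has one. Mrpl41 read 2565 and 3349 in KO and 5785 and 3042 in WT blastocysts, against 50.2 in the KO and 547 in the WT oocyte (log2 difference 4.40, SE 0.62). The oocyte arrays were far apart for Mrpl41, although both were below every blastocyst array. On its other probe set past the filter Mrpl41 differed by 2.32. The KO oocyte values of Mrpl41 and Mrpl15 were below the brightest control of that array. Mrpl15 read 3273 and 2772 in KO and 4727 and 3349 in WT blastocysts, against 131 in the KO and 308 in the WT oocyte (4.11, SE 0.37). Its 5 other probe sets past the filter differed by -0.37, 0.81, 2.51, 2.80 and 6.30 on the log2 scale, so the size of its rise depended on the probe set and its direction was turned in 1.

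Mrpl28, also of bacterial descent, read 15504 and 13782 in KO and 5848 and 7314 in WT blastocysts, against 828 in the KO and 474 in the WT oocyte, a log2 difference of 3.96 (SE 0.45). Both its other probe sets read higher in blastocysts as well, by 2.58 and 2.56. Mrpl42, specific to mitochondria, read 803 and 848 in KO and 2536 and 1603 in WT blastocysts, against 62.7 and 91.97 in KO and WT oocytes. Both oocyte values were below the brightest control of their arrays, so the rise is given as at least 6.14-fold, the blastocyst mean over the control level (limma adjusted p = 3.41e-05). For 11 members not above background in either oocyte such bounds ran from 1.11-fold for Mrps5 to this value. Across the 45 members that rose, 20 had other probe sets past the filter, 30 in all, of which 22 differed in the same direction and 8 in the opposite one. The opposite ones belonged to Mrpl1, Mrpl15, Mrpl17, Mrpl48, Mrpl51, Mrpl57, Mrps2 and Mrps6. Restricting to probe sets without a suffix (_s, _x or _a before the ending _at) left 60 members, of which 29 rose and 1 fell. The share of all genes that rose under this restriction is not given here.

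Mrpl9, a large subunit protein with a bacterial homologue, was the only member that fell between oocyte and blastocyst in this test. It read 2049 and 1779 in KO and 1831 and 1735 in WT blastocysts, against 8712 in the KO and 7298 in the WT oocyte. The 4 blastocyst values lay close together, far below both oocyte values and well above background. The log2 difference was -2.11 (SE 0.29, limma adjusted p = 0.000115), a 4.32-fold fall, and its 1 other probe set past the filter differed in the same direction. Other members were also brighter in oocytes without passing the test. Mrps22, a small subunit protein whose human gene is linked to mitochondrial disease, averaged -0.92 (adjusted p = 0.0809), and Mrps23 -0.91 (adjusted p = 0.0618).

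**Figure D2:**
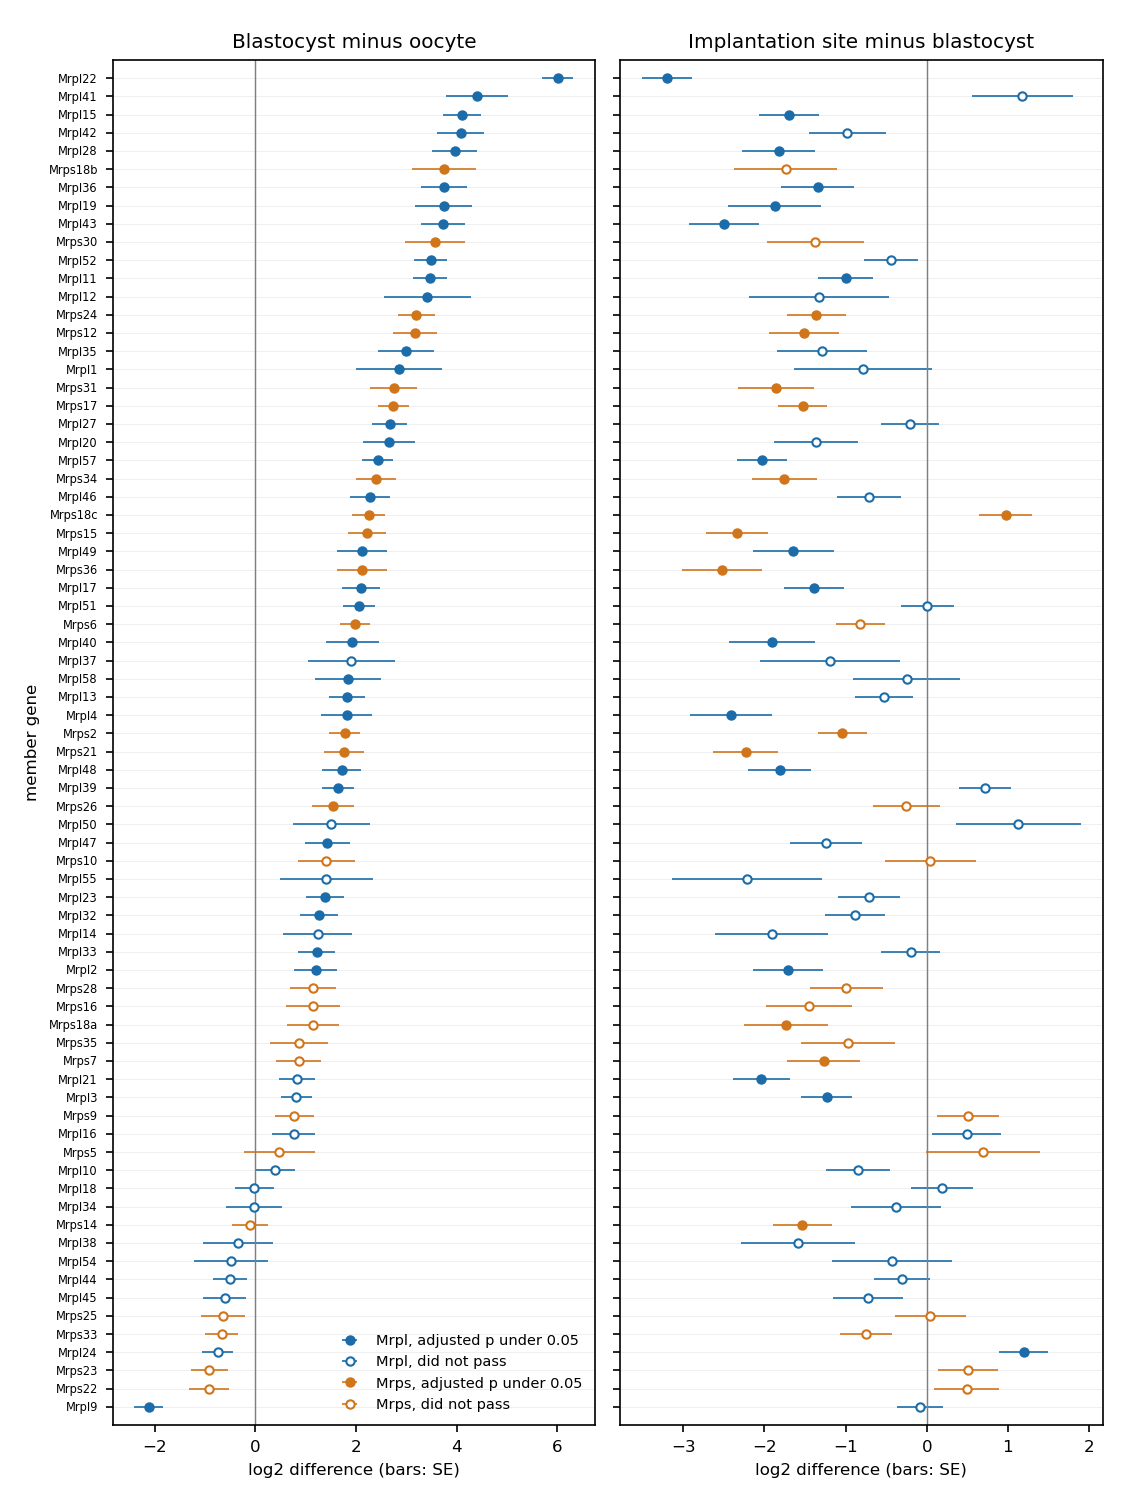
Log2 differences with SE bars for the 74 members tested, blastocyst minus oocyte at left and implantation site minus blastocyst at right, both in the order of the left panel. Filled points passed an adjusted p of 0.05, and for members below background in both oocytes, such as Mrpl42, the left value is measured against signals not told from background: 45 lie right of 0 and Mrpl9 left of it at left, and 28 lie left of 0 and Mrpl24 and Mrps18c right of it at right.

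Between blastocyst and implantation site the direction turned for most members. An implantation site is uterine tissue with an embryo in it: the uterine and decidual list summed to a signal of 1.542e+05 in the KO and 1.327e+05 in the WT site, against 1000 to 2787 on the blastocyst arrays. Lower RNA of a member per cell and another mix of cells cannot be told apart in such bulk samples. In the same fit, 28 of 74 members were lower in implantation sites, where 20% of all genes tested were lower, and 2 were higher, where 15.3% were. The median difference was -1.12 over the members, against -0.35 over all genes. The falls comprised 16 of 47 Mrpl and 12 of 27 Mrps genes, with median differences of -0.998 and -1.27. Implantation sites lay wholly below blastocysts in 48 members and wholly above them in 7, where 32.6% and 23.6% of all genes did so. These counts depended on scaling and on the arrays. With the arrays scaled to a common median signal 14 fell, and the median of all genes moved from -0.35 to 0.00. The share of all genes lower under that scaling is not given here, so the 14 cannot be set against it. Fewer members also fell without the KO implantation site array.

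Mrpl22 had the largest fall among the members, as it had the largest rise before: 1245 in the KO and 1135 in the WT site, against 8696 to 15561 in blastocysts (log2 difference -3.21, SE 0.31, adjusted p = 3.38e-05). Both sites lay below every blastocyst array and above both oocytes. Mrps36 read 258 in the KO site and 472 in the WT site, against 1023 and 2762 in KO and 1993 and 2879 in WT blastocysts (-2.52, SE 0.49). Mrpl43, specific to mitochondria, read 282 and 279 in KO and WT sites, against 1584 and 1148 in KO and 2010 and 1746 in WT blastocysts (-2.50, SE 0.43). The groups were apart in both genes, though the blastocyst arrays spread more for Mrps36. Mrpl4, whose protein reaches into the exit tunnel, fell by 2.41 (SE 0.50), and the WT site alone was above background. The small subunit genes Mrps15 and Mrps21, both of bacterial descent, fell by 2.34 and 2.23 on the log2 scale. Of 28 members that fell, 14 had 22 other probe sets past the filter, of which 17 differed in the same direction and 5, of Mrpl3, Mrpl19, Mrpl48, Mrpl57 and Mrps14, in the opposite one.

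Both members that rose had no other probe set. Mrpl24, at the exit of the tunnel, read 4103 in the KO site and 4537 in the WT site, against 1637 and 1634 in KO and 2802 and 1696 in WT blastocysts (log2 difference 1.19, SE 0.30, adjusted p = 0.0112). Mrps18c read 7141 in the KO site and 6958 in the WT site, against 3089 and 3800 in KO and 3351 and 4222 in WT blastocysts (0.97, SE 0.33, adjusted p = 0.037). In both genes the sites exceeded every blastocyst array, and neither passed without the KO site array, when a single site array is assumed to vary like the other groups.

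From oocyte to implantation site, the members ended higher more often than lower. In the same fit 23 of 74 were higher in implantation sites than in oocytes, where 20.5% of all genes were higher, and 4 were lower, where 16.6% were. Both directions together made 27 calls, against 14 with probe sets without suffix, which left fewer members. Fewer were also called without the KO site array. The median difference was 0.72, or 0.60 with the 10 members dim in both oocytes at their bounds, against -0.06 over all genes. Implantation sites lay wholly above oocytes in 40 members and wholly below them in 12, where 34.4% and 34.3% of all genes did so. Mrpl41 had the largest rise, at 8889 in the KO and 7075 in the WT site, against 50.2 and 547 in KO and WT oocytes (5.58, SE 0.72, adjusted p = 0.000134). The KO oocyte value was below background, and on its other probe set past the filter Mrpl41 differed by 2.25. Further rises were those of Mrps18c (3.23), Mrpl52 (3.05), Mrpl22 (2.81) and Mrpl50 (2.64). Mrpl42, below background in both oocytes, rose at least 3.12-fold. The 4 that were lower were Mrpl9 (-2.20, SE 0.33, adjusted p = 0.000389), Mrps14 (-1.64), Mrps33 (-1.41) and Mrpl21 (-1.21). Mrpl9 read 1524 in the KO site and 1989 in the WT site, so its signal was at the blastocyst level and not at that of the oocyte. With probe sets without suffix alone, Mrpl21 was read by another probe set and differed by 1.16 in the opposite direction. Another probe set of Mrps14 past the filter also differed in the opposite direction, by 1.30.

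Read by role, most parts of the particle held members that rose to the blastocyst and fell after it, beside members that passed neither test. Mrps12, at the decoding centre, read 1966 and 1942 in KO and 3414 and 2574 in WT blastocysts, against 394 in the KO and 181 in the WT oocyte, and rose by 3.17 (SE 0.43). Then it fell by 1.51 to 1052 in the KO and 680 in the WT site. Mrps2, an outer small subunit protein, rose by 1.78 and fell by 1.04, and Mrps34 rose by 2.40 and fell by 1.76. Mrps7 (0.86 and -1.27) passed the test in the second step alone, and Mrps16 (1.15 and -1.45) in neither. Mrps5 was near background on most arrays and above it on 4 of 8.

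In the large subunit, the stalk and its base recruit translation factors. Mrpl12, the stalk protein that in human cells also binds the mitochondrial RNA polymerase, rose at least 3.65-fold, with both oocytes below background and apart from each other, at 258 in KO and 20.1 in WT. It did not rise to the threshold with the WT oocyte array left out. Mrpl11, at the stalk base, read 4314 and 4146 in KO and 6221 and 3443 in WT blastocysts, against 364 and 440 in KO and WT oocytes, and rose by 3.47 (SE 0.34). It fell again at implantation (adjusted p = 0.0388), to 2645 in the KO and 1855 in the WT site. Mrpl10, which carries the stalk proteins, passed neither test (0.39 and -0.85). Around the peptidyl transferase centre, Mrpl2 rose by 1.21 and fell by 1.71, Mrpl3 fell by 1.23 after a step of 0.82 that did not pass, and Mrpl16 passed neither (0.76 and 0.49). At the tunnel exit, Mrpl23 rose by 1.39 and its second step of -0.71 did not pass, while Mrpl45, which docks the ribosome at the membrane, differed by -0.61 and -0.72 with neither passing. Mrpl44, which has the fold of an RNA-cutting enzyme, was bright throughout, at 5130 to 12577, and passed neither (-0.50 and -0.30).

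Mrps18a, Mrps18b and Mrps18c are 3 genes descended from a single bacterial ribosomal protein gene, and their proteins sit at different places, Mrps18a in the large subunit. Their courses differed. Mrps18b read 212 and 35.98 in KO and WT oocytes, 1289 and 1320 in KO and 1179 and 973 in WT blastocysts, and 261 and 480 in KO and WT sites. Mrps18b rose at least 5.62-fold between oocyte and blastocyst, both oocytes being below background (adjusted p = 0.000531), and its second step of -1.74 did not pass (adjusted p = 0.0524). Mrps18a read 441 and 212 in KO and WT oocytes, 1136 and 746 in KO and 626 and 399 in WT blastocysts, and 195 and 214 in KO and WT sites. Its first step of 1.15 did not pass and its second was a fall of 1.73 (adjusted p = 0.0234). Mrps18c read 510 and 1108 in KO and WT oocytes, rose by 2.26 to the blastocyst (adjusted p = 0.000178) and, as described, rose again. No test compared the 3 genes with each other.

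**Figure D3:**
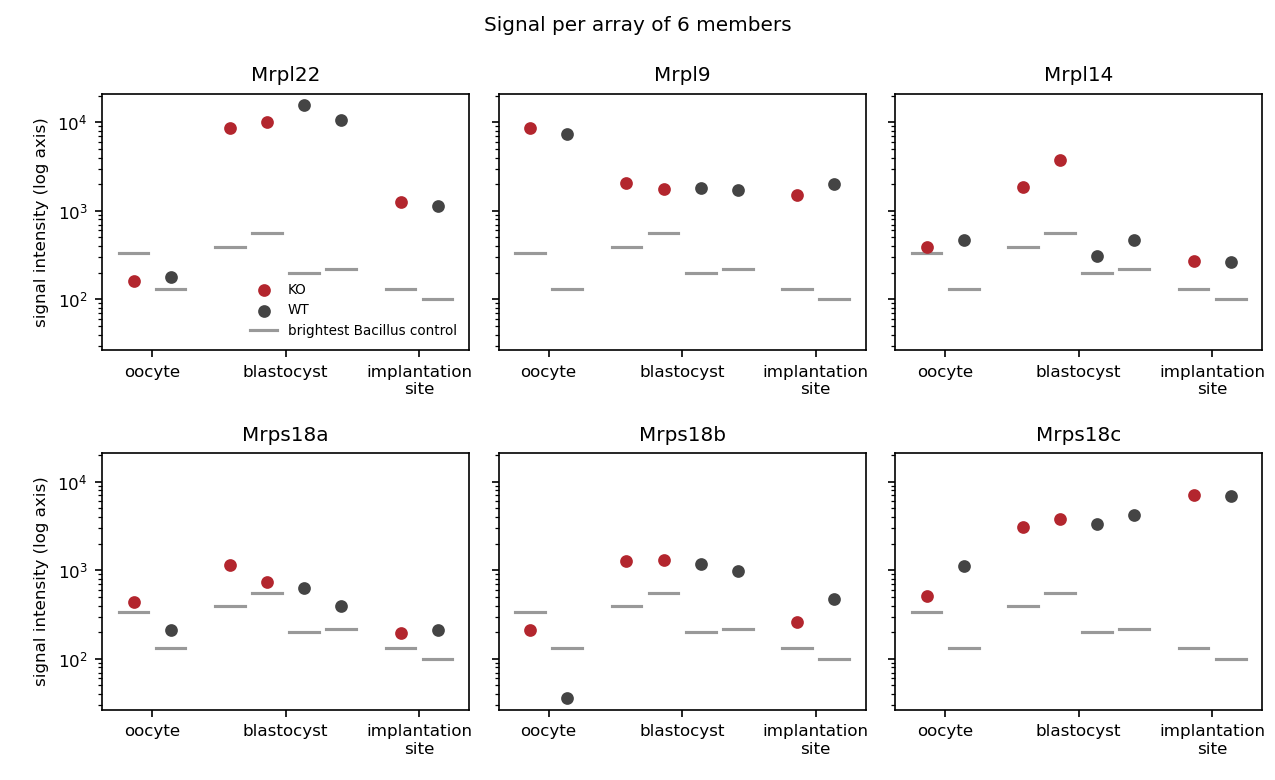
Signal intensity on a log axis for 6 members on each of the 8 arrays, KO in red left of WT in grey within each stage, with grey bars at each array's brightest Bacillus control. Mrpl22 peaks in blastocysts, Mrpl9 is highest in oocytes, Mrpl14 is high in both KO blastocysts, and Mrps18c is highest in implantation sites while Mrps18a and Mrps18b are not.

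Other genes of mitochondrial translation did not all follow. The shares of all genes tested to set beside the counts are 26.9% higher and 18.6% lower between oocyte and blastocyst, then 15.3% higher and 20% lower in implantation sites. Of 12 translation factors tested, 6 rose between oocyte and blastocyst and 1 fell. The rises included Slirp (3.61, SE 0.33) and Lrpprc, partners that stabilize mitochondrial messenger RNAs, and Pdf, which removes the formyl group from new proteins. Both oocytes were below background for Lrpprc, which rose at least 7.26-fold, and for Pdf, which rose at least 1.56-fold and was above background in 2 of 4 blastocyst arrays. The fall was that of Mtfmt, which adds the formyl group to the initiator transfer RNA. Its signal was 99.7 and 27.9 in KO and 187 and 122 in WT blastocysts, against 630 in the KO and 618 in the WT oocyte. All 4 blastocyst values were below background, so the fall is given as at least 1.99-fold. Between blastocyst and implantation site 2 of the 12 fell, Lrpprc (-2.27) and the elongation factor gene Tufm (-2.23), and 0 rose. Of 19 assembly factors 2 rose and 3 fell between oocyte and blastocyst, then 1 rose and 3 fell. Of 15 mitochondrial aminoacyl-tRNA synthetases 5 rose and 0 fell, then 0 rose and 5 fell. Of 5 mitoribosomal proteins with other symbols 1 rose and 0 fell, then 0 rose and 1 fell. Of 5 mitochondrial transcription genes 1 rose and 2 fell, then 1 rose and 1 fell. Among 9 regulators 4 rose and 1 fell, then 1 rose and 3 fell. The genes of the factors whose motifs were searched are among them: Nrf1 rose by 1.16 (SE 0.39), Gabpa rose by 2.14 (SE 0.37) and Gabpb1 fell by 2.02 (SE 0.56) between oocyte and blastocyst.

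Signal quality differed between the arrays that carry these stage results. The ratio of 3′ to 5′ signal of the Gapdh control was 2.41 in the KO and 10.1 in the WT oocyte, 11.2 and 11.8 in KO and 7.27 and 7.71 in WT blastocysts, and 7.46 and 7.21 in KO and WT sites. That of the actin control was 6.68 in the KO and 33.4 in the WT oocyte, 25.7 and 39.0 in KO and 69.3 and 69.1 in WT blastocysts, and 27.9 and 21.2 in KO and WT sites. The KO oocyte held the lowest ratio of both controls, the WT oocyte lay inside the blastocyst range, and the part of RNA integrity in the stage differences was not tested. With the KO oocyte array left out 47 members were higher in blastocysts, 41 of them among the 45, and with the WT oocyte array left out 37 were, 36 of them among the 45.

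The genotype comparison sets material labelled KO against material labelled WT in each stage. In blastocysts, 0 of 74 members passed the test of KO against WT in limma's fit on the 4 blastocyst arrays, where 0.102% of all genes were higher and 0% lower. At an unadjusted p under 0.05, 4 members were higher and 7 lower in KO, where 8.77% and 6.71% of all genes were. The members' differences lay above 0 in 25 and below 0 in 49, with a median of -0.29, against -0.01 over all genes. On this scale Mrpl and Mrps had medians of -0.27 and -0.30. Scaling to a common median signal moved the medians to -0.54 for the members and -0.26 for all genes. Both KO arrays lay below both WT arrays in 29 members and above them in 8, where 25.3% and 23.8% of all genes did so. Without the array labelled WT replicate 2 the differences lay above 0 in 23 and below 0 in 51, with a median of -0.30, against -0.065 over all genes. Then 2 members passed, both higher in KO, where 2.5% of all genes were, and 0 were lower, where 0.187% were. Both KO arrays lay below the remaining WT array in 42 members and above it in 17, where 41.6% and 37.8% of all genes did so.

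The largest difference was that of Mrpl14, a large subunit protein at the interface with the small subunit. It read 1872 and 3702 in KO blastocysts, against 311 and 468 in WT blastocysts. Both KO values lay far above both WT values, and outside blastocysts the gene read 262 to 463 in either genotype. The log2 difference was 2.79 (SE 0.44) and did not pass (adjusted p = 0.073). This call depended on the setting: the adjusted p ranged from 0.0155 to 0.296 over the alternatives, and was 0.0344 (difference 3.08) with the array labelled WT replicate 2 left out, which leaves 1 WT array. Mrpl20, whose bacterial homologue acts early in assembly, read 2171 and 2161 in KO against 653 and 522 in WT blastocysts (1.89, SE 0.34, adjusted p = 0.0963), and the difference was 1.73 (adjusted p = 0.0606) without WT replicate 2. Mrpl28 read 15504 and 13782 in KO against 5848 and 7314 in WT blastocysts (1.16, SE 0.29, adjusted p = 0.163), and its other probe sets differed by 0.08 and 0.21. With WT replicate 1 as the sole WT array, Mrpl28 passed at 1.32 (adjusted p = 0.0444). Mrpl44 differed by 0.76, or 0.68 without WT replicate 2, but by -0.61 and -0.12 on its other probe sets past the filter.

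Of the members lower in KO blastocysts, none passed in limma's test. Mrpl4 read 385 and 758 in KO, against 1444 and 1440 in WT blastocysts (-1.42, SE 0.43, adjusted p = 0.217), and the first KO value was below that array's background level. Mrpl42 read 803 and 848 in KO, against 2536 and 1603 in WT (-1.29, SE 0.36), and Mrpl40, specific to mitochondria, read 2115 and 1561 in KO, against 5104 and 3829 in WT (-1.28, SE 0.31). Mrpl19 read 674 and 602 in KO, against 1338 and 1250 in WT (-1.02, SE 0.36). In all 4 genes both KO values lay below both WT values, for which they were chosen. Without WT replicate 2 the differences were -1.42 for Mrpl4, -1.62 for Mrpl42, -1.49 for Mrpl40 and -1.07 for Mrpl19, with adjusted p between 0.0761 and 0.194. The members with a fixed place or role not yet given for this comparison, Mrps12, Mrps5, Mrps7, Mrps2, Mrps16, Mrps22, Mrps34, Mrps18a, Mrps18b, Mrps18c, Mrps30, Mrpl2, Mrpl3, Mrpl10, Mrpl11, Mrpl12, Mrpl16, Mrpl23, Mrpl24 and Mrpl45, differed by -0.89 to 0.88. Without WT replicate 2 they differed by -0.97 to 1.52 with 0 passing, the highest being Mrps16 (1.52, against 0.73 with both WT arrays), while Mrps5 was at -0.37, against -0.82 with both.

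Beside these differences, summed marker signals and RNA quality also differed between the blastocyst genotypes. The 5 inner cell mass markers summed to 6870 and 7439 in KO, against 14270 and 9544 in WT blastocysts. Of these sums Klf4 made up 2889 and 2552 in KO and 7957 and 4484 in WT. Sox2 and Fgf4 were also lower on both KO arrays, and Nanog overlapped. Pou5f1 went the other way, at 1598 and 1315 in KO against 1215 and 997 in WT. The 4 primitive endoderm markers summed to 3790 and 3785 in KO, against 6324 and 6544 in WT. Of these, Sox17 and Pdgfra were lower on both KO arrays, and Gata6 overlapped. Gata4 also overlapped, at 564 and 298 in KO against 181 and 446 in WT. The 7 immune and blood markers summed to 8099 and 14350 in KO, against 1452 and 4801 in WT, of which Csf1r made up 6134 and 11937 in KO and 593 and 3881 in WT. Of these 7, 2 were above background on both KO arrays, against 4 on WT replicate 1 and 2 on WT replicate 2, and Ptprc, which marks all white blood cells, was below it on all 4. The Gapdh ratio given above was higher and the actin ratio lower on both KO arrays than on both WT arrays. The part of cell makeup and of RNA quality in the genotype differences was not tested.

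**Figure D4:**
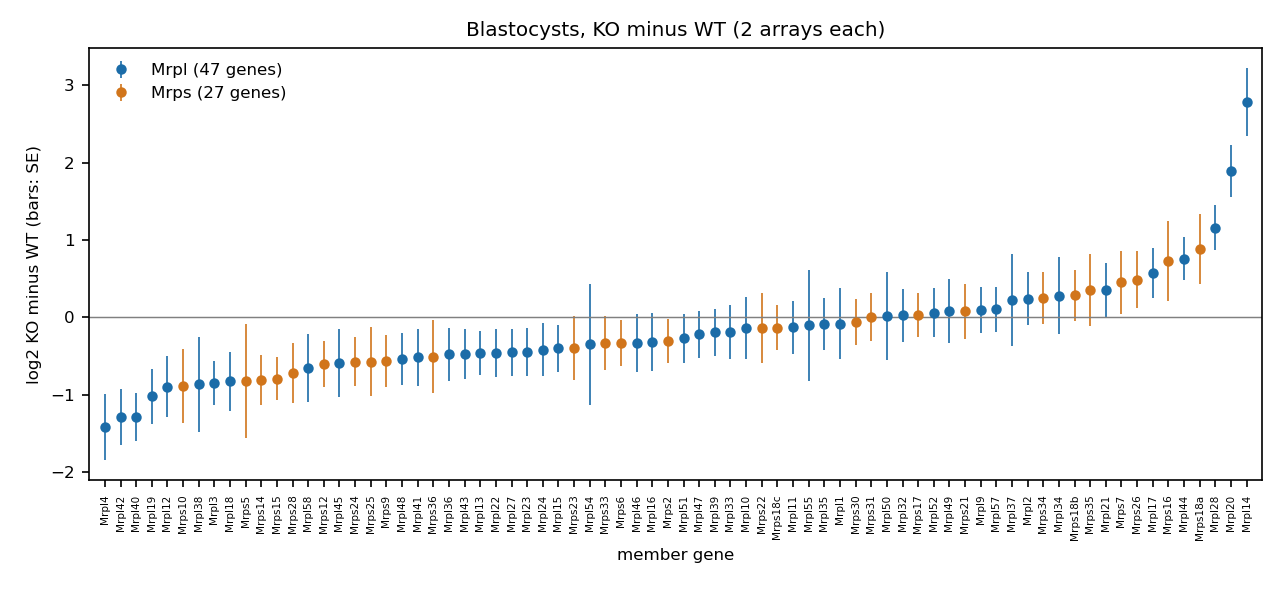
Log2 difference of KO minus WT blastocysts (2 arrays each) with SE bars for the 74 members, in order of size. Of these, 49 lie below 0 and 25 above it, and Mrpl14 and Mrpl20 stand at the upper end at 2.79 and 1.89.

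In oocytes, with 1 array per genotype, the difference has no replicate check. The median log2 difference of KO minus WT was 0.17 over the members and 0.09 over all genes. The sign of the member median depended on scaling: it was -0.10 after quantile normalization and -0.38 with a common median signal. Of the 74 tested, at least 2-fold apart were 15 members higher in KO, where 23.9% of all genes were, and 9 lower, where 12.3% were. Mrpl1, Mrpl12, Mrpl37 and Mrps18b differed by 2.56 to 3.82 on the log2 scale, but were below background on both oocyte arrays. Among members whose brighter array exceeded its control, Mrps11 read 337 in the KO oocyte and 21.5 in the WT oocyte, the first barely above its array's control level. The ribosome rescue factor gene Mrpl58, whose protein frees stalled peptides, read 636 in KO and 101 in WT. Mrps16 read 1089 in KO and 265 in WT, Mrps31 539 and 143, and Mrpl34 989 and 272. Lower in KO were Mrpl50 (38.4 in KO, 450 in WT), Mrpl41 (50.2 and 547), Mrps30 (61.5 and 364), Mrpl35 (93.2 and 451) and Mrps36 (227 and 948). The KO oocyte array had the higher background, 334 against 132 in WT, so for all 5 the KO value was below it. Mrpl41, Mrpl35 and Mrpl34 turned in direction on another probe set past the filter, at 1.22, 0.60 and -0.94.

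Implantation sites again had 1 array per genotype, so the difference has no replicate check. The median was 0.03 over the members, against -0.13 over all genes. After quantile normalization the member median was 0.13, and with a common median signal it was 0.44. On the deposited scale 4 members were at least 2-fold higher in KO, where 6.12% of all genes were, and 4 lower, where 15.9% were. Higher in KO were Mrpl47 (1142 in KO, 531 in WT), Mrpl52 (5570 and 2765), Mrps30 (977 and 487), Mrpl54 (226 and 113) and, under 2-fold, Mrps34 (609 and 313). Lower were Mrps27 (14.4 in KO, 188 in WT), Mrpl55 (26.7 and 246), Mrpl38 (67.2 and 157), Mrpl28 (1821 and 4174) and Mrpl2 (381 and 859). For Mrps27, Mrpl55 and Mrpl38 the KO value was below background. Mrps30 was lower in the KO oocyte and higher in the KO site, and both other probe sets of Mrpl28 past the filter differed in the opposite direction, by 0.82 and 0.27.

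**Figure D5:**
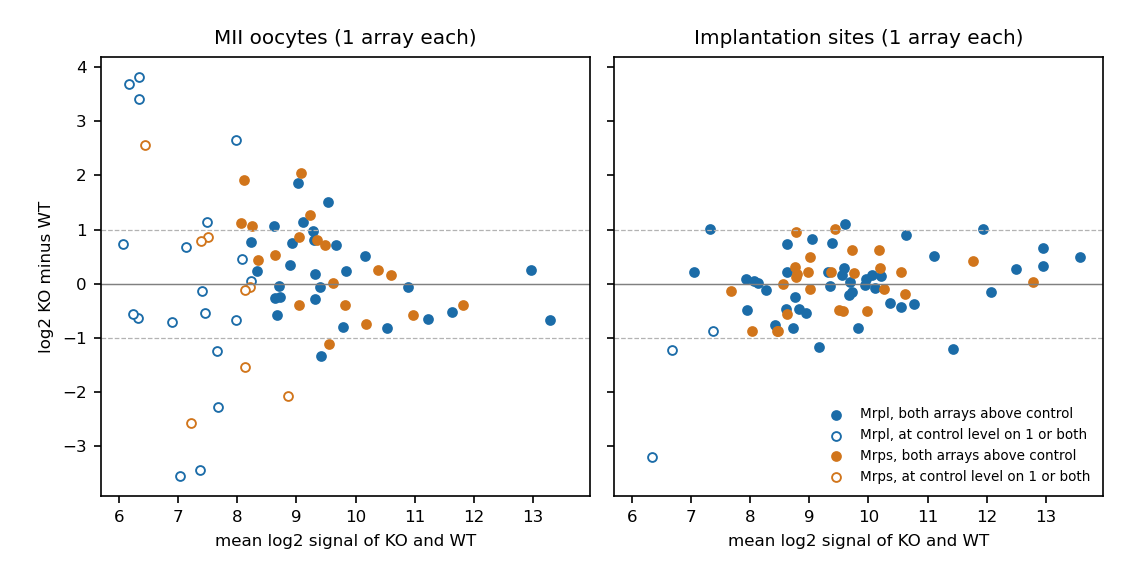
Log2 difference of KO minus WT against the mean log2 signal of both arrays for the 74 members, in oocytes at left and implantation sites at right, with open points where 1 or both arrays were at control level. The oocyte differences run from -3.55 to 3.82 with the widest spread among dim, open points, and most implantation site points lie within the dashed 2-fold lines.

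A KO effect shared by the stages was not called for any member. In the fit over all 8 arrays 0 of 74 passed, as did 0% of all genes in either direction, with 2 members higher and 3 lower at an unadjusted p under 0.05, where 3.64% and 3.28% of all genes were. The median was -0.15, against -0.01 over all genes. The genotypes overlapped in all 74, where they did not overlap in 0.324% (higher) and 0.281% (lower) of all genes. That overlap pools the stages, whose differences make it likely whatever the genotype, so nothing is concluded from it. A limma fit of the 6 group means set the KO effect of the oocytes, and that of the implantation sites, against that of the blastocysts. Its spread came from the blastocyst arrays alone, and the single oocyte and implantation site arrays are assumed to vary like them. For oocytes it called 0 members, where 0.017% of all genes were called, and 17 of 74 at an unadjusted p under 0.05, where 11.7% were. For implantation sites it called 0 members, where 0% of all genes were called, and 7 of 74 at an unadjusted p under 0.05, where 12.5% were.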

How the data were processed

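RNA of 3 stages and 2 genotypes was read on 8 Affymetrix arrays. The authors deposited linear signal intensity per probe set, made with MAS5 per the submitters' processing notes, with no version given in the sources used here. Of 45101 probe sets, 34945 were annotated to 1 gene by the platform table, 932 to several, 9160 to none and 64 were controls. Symbols, chromosomes and promoters came from RefSeq (GRCm38.p6). The 4 member probe sets shared with another gene were left out. Signal was log2 transformed, the upper 50% of probe sets (22519, mean signal 151 or more) entered, and limma 3.58.1 in R 4.3.3 (lmFit, eBayes with intensity trend, two-sided) gave p-values adjusted by Benjamini-Hochberg over 11746 genes. KO and WT within oocytes and within implantation sites were compared by fold without a test. An array's brightest Bacillus control was taken as background, which assumes that no Bacillus RNA was added. Named members were the largest non-overlapping changes that passed (6 in each direction), in blastocysts the 4 largest that did not pass, the 5 largest in each direction in each unreplicated stage among members whose brighter array exceeded background, and members with a known place. Members and lists were chosen with earlier results of these data known. The fits were also run on simulated data that gave every stage the spread of the blastocyst arrays. That run cannot show how they do with the spread of oocytes or implantation sites. Plots used matplotlib 3.10.9 in Python 3.11.15.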

Additional observations from a re-analysis of the deposited data

How the results depend on the processing

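In each stage comparison the direction with more members called was the same under every alternative run. Blastocyst KO against WT called 0 members as reported and 1, Mrpl14 higher in KO, with a common median signal, with the upper 30% of probe sets and with the replicate number as a block, and 0 to 2 when an array was left out. The replicate numbers are not shown to pair samples: only 2 pairs exist, and the KO and WT replicate differences had a correlation of 0.0182 over genes. The block raised the genes called from 12 higher and 0 lower to 91 higher and 1 lower. Blastocyst against oocyte called 46 members as reported, 30 with probe sets without suffix, which left 60 members, and 38 to 49 when an array was left out. Implantation site against blastocyst called 30 as reported, 16 with a common median signal, and 17 to 38 when an array was left out, with 17 without the KO site. Implantation site against oocyte called 27 as reported, 14 with probe sets without suffix, and 17 to 27 when an array was left out, again 17 without the KO site. The shared KO effect called 0 in every alternative run. Leaving out an array leaves 1 array in that oocyte or implantation site stage, or 1 of that genotype in blastocysts, assumed to vary like the others. For the stage comparisons the share of all genes under each alternative is not given, so these counts are set only against the count as reported. The member median in oocytes, 0.17 as reported, was -0.10 after quantile normalization, -0.38 with a common median signal, 0.0080 with the upper 30% and -0.028 with probe sets without suffix. In implantation sites it was 0.03 as reported, 0.13 after quantile normalization and 0.44 with a common median signal. The KO minus WT direction turned on another probe set for Mrpl41 (1.22), Mrpl35 (0.60) and Mrpl34 (-0.94) in oocytes. It also did so for Mrpl44 (-0.61 and -0.12) in blastocysts and Mrpl28 (0.82 and 0.27) in implantation sites. After quantile normalization Mrpl41 read 0.95 in oocytes. That run chose the brightest probe set anew, so this value is not a check separate from the other probe set. Implantation site minus oocyte turned for Mrpl21 (1.16). The cause of these shifts was not tested. The number of arrays and the background of the oocyte KO array limit what dim members can show.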

Other observations

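Mrpl30 and Mrpl53 are members by name that were left out of the counts because each of their probe sets is also annotated to another gene. A probe set shared by Mrpl30 and Gm6238 read 2208 and 1585 in KO blastocysts and 2236 and 2433 in WT blastocysts, against 93.1 in the KO and 72.6 in the WT oocyte. In implantation sites it read 689 (KO) and 734 (WT), so it was high in blastocysts, low in oocytes and between these in implantation sites. A second probe set of the same pair was dim and below the filter. The probe set shared by Mrpl53 and Ccdc142 read 880 and 840 in KO blastocysts and 1361 and 767 in WT blastocysts, against 1928 in the KO and 1529 in the WT oocyte. In implantation sites it read 1708 (KO) and 1355 (WT). On average it was lowest in blastocysts, although the WT blastocyst array at 1361 read just above the WT site. Which of the 2 genes each signal comes from cannot be told from these arrays.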
